A study of Homo sapiens with 3 samples.

Results

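Promoter interactions spanning over 1 Mb and at most 2 Mb were examined by promoter capture Hi-C (PCHi-C) in hESC-CMs, heart muscle cells grown from WA09 (H9), an established line of human embryonic stem cells. PCHi-C ligates neighbouring pieces of crosslinked chromatin and enriches the products for HindIII restriction fragments that carry a promoter, so that each interaction (or contact) pairs a promoter fragment with a promoter-interacting region (PIR). The data were 3 biological replicates of 1 condition, with no perturbation and no second group, from 1 cell line. The cells had been enriched for cardiomyocytes in lactate medium without glucose, and the purity that was required before fixation left room for other cell types. An interaction was taken when both fragments lay on 1 chromosome, when their midpoints were over 1 Mb and at most 2 Mb apart, and when the PIR was not a promoter fragment in any replicate. The rule found 27855 interactions among the 200809 that the 3 replicates called together. The counts in replicates 1, 2 and 3 were 14789, 14008 and 14833, or on average 13.1% ± 0.317 (SD, n = 3) of everything a replicate called. They joined 4393 of the 19075 promoter fragments with any call to 19007 PIRs, and a further 2490 interactions of this span between promoter fragments were left out. Each interaction carries a CHiCAGO score, which measures the excess of its reads over a background that depends on distance and technical noise. The lowest listed score was 5, so a pair that a replicate does not list may have scored just below it, and the read depth of each replicate was not known.

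Most promoters contact their enhancers at much shorter range, inside the same topological domain. Longer contacts are best known at developmental regulators, whose enhancers can lie far out in neighbouring gene deserts, and at pairs of sites bound by CTCF, a zinc finger protein that stops cohesin as it extrudes a loop of DNA. CTCF holds cohesin most efficiently where its motifs at both ends of a loop face each other. Capture calls of such long span rest on few read pairs, because ligation becomes rarer with distance.

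The sequences below show both ends of 4 interactions that all 3 replicates called and that held a CTCF core motif at each end, with the motifs facing each other. The motif searched was CCNNNAGGNGGC on both strands of GRCh37, with no other motif searched, and its 12 bases are in capitals. The bases were read from the GRCh37 reference genome. Each line runs 5′ to 3′ along the strand of the motif, which is the minus strand for the promoter end of a contact to the left and the plus strand for its PIR, and the reverse for the contact of TMTC2 to the right. The promoter fragment of TMTC2 held 2 matches, of which 1 is shown.
LINC02118 promoter fragment (chr5:51303248-51303287, minus strand): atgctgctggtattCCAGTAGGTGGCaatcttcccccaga
LINC02118 PIR (chr5:50258928-50258967, plus strand): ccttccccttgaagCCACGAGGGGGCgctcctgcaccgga
TAFA5 promoter fragment (chr22:48886955-48886994, minus strand): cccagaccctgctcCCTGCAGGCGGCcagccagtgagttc
TAFA5 PIR (chr22:47194656-47194695, plus strand): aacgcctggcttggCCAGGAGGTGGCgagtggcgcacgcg
TMTC2 promoter fragment (chr12:83079700-83079739, plus strand): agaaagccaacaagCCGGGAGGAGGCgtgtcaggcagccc
TMTC2 PIR (chr12:84791260-84791299, minus strand): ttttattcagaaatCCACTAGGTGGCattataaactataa
MARCKS promoter fragment (chr6:114180269-114180308, minus strand): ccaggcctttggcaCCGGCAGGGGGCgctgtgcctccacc
MARCKS PIR (chr6:113101866-113101905, plus strand): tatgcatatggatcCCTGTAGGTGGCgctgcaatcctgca

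Among these, the promoter fragment of TAFA5, which encodes a secreted chemokine-like protein, met a PIR inside TBC1D22A at 1691 kb with scores of 33.71, 35.53 and 26.94 in replicates 1, 2 and 3. The promoter of TMTC2, a membrane protein of the endoplasmic reticulum, met its PIR at 1712 kb with scores of 21.14, 30.42 and 22.16. The promoter of MARCKS, an actin-binding substrate of protein kinase C, met a PIR at 1078 kb with scores of 24.45, 25.16 and 17.95. No protein-coding gene was passed over in these 3 interactions. The fourth, from the promoter of the long noncoding RNA LINC02118 to a PIR beside PARP8, spanned 1048 kb with scores of 33.45, 40.67 and 28.43.

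Both of the short PIRs below are shown whole, because they carry the strongest interaction of PDGFRA and the interaction shared by the most promoters. The capitals mark the bases left by HindIII at the start of the fragment.
PIR of PDGFRA (chr4:53881663-53881838, plus strand): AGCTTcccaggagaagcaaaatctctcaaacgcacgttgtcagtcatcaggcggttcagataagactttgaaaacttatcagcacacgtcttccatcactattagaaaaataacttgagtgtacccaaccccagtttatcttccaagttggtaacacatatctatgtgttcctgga
PIR of the histone genes (chr6:27789606-27789780, plus strand): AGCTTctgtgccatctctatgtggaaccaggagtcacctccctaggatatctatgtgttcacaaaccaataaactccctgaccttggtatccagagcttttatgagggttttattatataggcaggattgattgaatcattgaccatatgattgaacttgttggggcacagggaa

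Of the 27855 interactions, 17288 were called in 1 replicate, 5359 in 2 replicates and 5208 in all 3. The share called in all 3 was 18.7% (95% Wilson interval 18.2 to 19.2%, covering counting error only), beside 23.9% of all 200809 calls. Per replicate, the share of its calls that both other replicates made, here called recurrence, was 35.2%, 37.2% and 35.1% for this span. Interactions of at most 1 Mb to fragments that were no promoter fragment recurred at 51.8%, 54.0% and 55.2%, and those of 2 to 10 Mb at 23.2%, 23.2% and 21.7%. Recurrence at 1 to 2 Mb was therefore lower than at shorter span by 17.8 percentage points on average (SD 1.95, n = 3, lower in 3 of 3 replicates) and higher than at longer span by 13.1 points (SD 1.05, higher in 3 of 3). Both differences gave p = 0.25 in an exact two-sided sign-flip permutation test, the smallest that 3 replicates allow. Within a span the 3 shares have the same numerator, the interactions in all 3 replicates, which was 5208 at 1 to 2 Mb. They differ only by each replicate's number of calls. The SDs, the signs and the test therefore do not measure independent variation of recurrence between replicates. When a call within 5 kb of the same PIR counted as the same interaction, the share in all 3 replicates was 47.4%.

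Recurring calls had higher scores than single calls, with overlap. Part of this follows from the definition, because a call recurs only where both other replicates also score it at 5 or more. The median mean score was 5.93 for interactions of 1 replicate, 6.83 for 2 replicates and 9.47 for 3. Of calls scored from 5 to below 6, 12.8% ± 0.861 (SD, n = 3) recurred at 1 to 2 Mb, against 25.6% ± 2.29 at shorter span. At scores from 10 to below 20, the recurrence was 79.2% ± 1.52 against 95.8% ± 0.193, and at 20 or more it was 98.6% ± 0.363 against 99.9% ± 0.0953. The gap between the spans was thus largest in the middle of the score range and small for the strongest calls. Pairs of replicates shared 31.5%, 31.4% and 32.1% of the interactions that either called. Across the interactions that both replicates of a pair called, Spearman's rho of the scores was 0.563, 0.568 and 0.564, which is a description across interactions that share promoters.

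**Figure D1:**
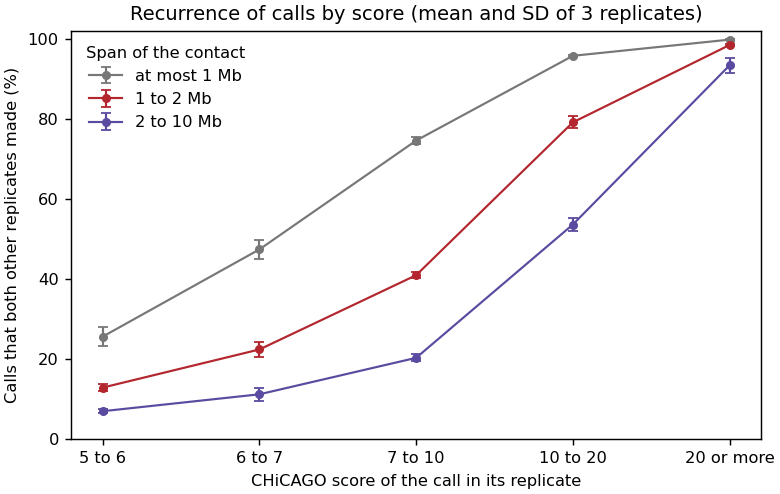
Percentage of a replicate's calls that both other replicates made (y axis) by the CHiCAGO score of the call (x axis), for interactions of at most 1 Mb, 1 to 2 Mb and 2 to 10 Mb; points are means and bars are SDs of 3 replicates. At scores of 7 to below 10 the 3 spans stood at 74.6%, 40.9% and 20.2%, and at 20 or more all exceeded 93%.

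The number of interactions did not fall smoothly with distance. In windows of 50 kb, replicate 1 had 1216 interactions from 950 to 1000 kb and 1034 from 1000 to 1050 kb, so counts were falling where the 1 Mb limit was set. From 1300 to 1500 kb the 3 replicates had 2591, 2413 and 2538 interactions, and from 1500 to 1700 kb they had 3288, 3153 and 3332, which was 1.27, 1.31 and 1.31 times as many. The longer window was the fuller one in every replicate. For interactions in all 3 replicates the counts were 804 and 1240, a ratio of 1.54, from 228 and 277 promoter fragments. The ratio was 1.46 without the 15 promoter fragments with the most interactions, 1.44 without chromosome 6 and 1.17 for the calls on the merged replicates. By chromosome, 13 of 23 had more interactions in the longer window, led by chromosome 6 (163 and 315), chromosome 1 (40 and 138) and chromosome 18 (18 and 89), whereas chromosome 3 had 63 and 18. The part of the caller's distance function in this step was not tested.

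**Figure D2:**
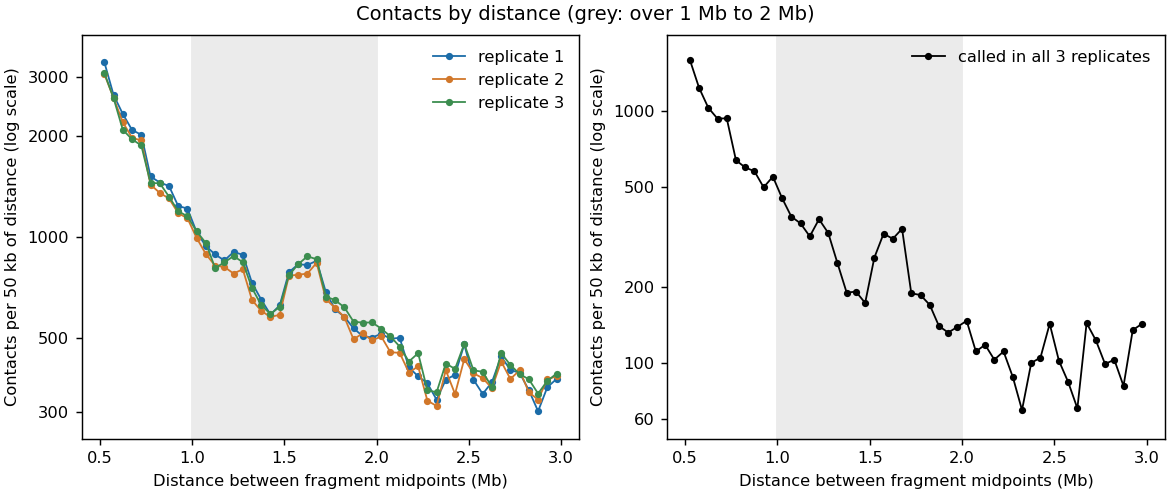
Number of interactions per 50 kb of distance (y axis, log scale) against the distance between fragment midpoints in Mb (x axis), for each replicate (left) and for interactions called in all 3 replicates (right); grey marks the span studied. In each replicate the count at 1.5 to 1.7 Mb was above that at 1.3 to 1.5 Mb.

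Recurring interactions were concentrated on few promoters. All 3 replicates called at least 1 interaction of this span from 1025 promoter fragments, while 2641 promoter fragments had interactions in 1 replicate only. The 148 promoter fragments with at least 10 interactions in all 3 replicates held 2614 of the 5208 (50.2%). Where a promoter fragment had a single interaction of this span, 13 of 1616 (0.804%) were in all 3 replicates, and where it had at least 50, 958 of 2791 (34.3%) were. Interactions of 1 promoter were neighbours. The 5208 fell into 1532 blocks of PIRs no more than 20 kb apart, of which 339 blocks of at least 5 fragments held 3143. Of the 354 promoter fragments with at least 5 such interactions, 347 had all of them on 1 side of the promoter. A shorter interaction in all 3 replicates was found on that same side for 313 of 1037 promoter sides (30.2%) and on the other side for 107 (10.3%). For comparison, 7250 promoter sides had such a shorter interaction, counting both sides of all 19075 promoter fragments with any call.

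The promoter fragment with the most interactions in all 3 replicates was that of the long noncoding RNA LINC02880 (chr6:114222879-114226021). It had 112, 104 and 113 interactions in replicates 1, 2 and 3 and 75 in all 3, all of them to the left at 1091 to 1802 kb. These fell into 6 blocks, and the largest, chr6:112606282-112777260, held 31 fragments around RFPL4B. A neighbouring promoter fragment without an annotated start (chr6:114258544-114263063) had 65, 72 and 67 interactions, with 31 in all 3, within the same stretch. The contact was also seen from its other end. The promoter fragments of LAMA4, a laminin chain of vascular basement membranes, and of RFPL4B were among 7 promoter fragments that called the PIR chr6:114227698-114229173 in all 3 replicates, a fragment of 1476 bases just right of LINC02880. Neither LINC02880 nor its neighbour had any interaction of at most 1 Mb with a fragment that was no promoter fragment, in any replicate.

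POU3F2, a POU-domain transcription factor of neural progenitors, had 67, 71 and 74 interactions and 47 in all 3. They reached 1132 to 1771 kb to the left, and 31 of the 47 formed a block at chr6:97874994-97960179. No protein-coding gene was passed over in 35 of the 47, which lay in the desert between MMS22L and POU3F2, and the others lay over MMS22L or KLHL32. FOXP2, a forkhead transcription factor with a role in speech and in several developing tissues, had 59, 68 and 63 interactions from the fragment chr7:113722909-113730629 and 39 in all 3. They lay 1580 to 1856 kb to the right, in 3 blocks, 38 of them in the desert between MDFIC and TFEC, and the strongest scored 27.65, 25.34 and 24.58. TFAP2A, a transcription factor of neural crest and epidermis, had 47, 51 and 43 interactions. Its 29 in all 3 all lay in the desert between SLC35B3 and TFAP2A at 1152 to 1917 kb, with no gene passed over, and 15 of them stood together at chr6:9239723-9267476. The 3 replicates gave similar counts for each of these genes.

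**Figure D3:**
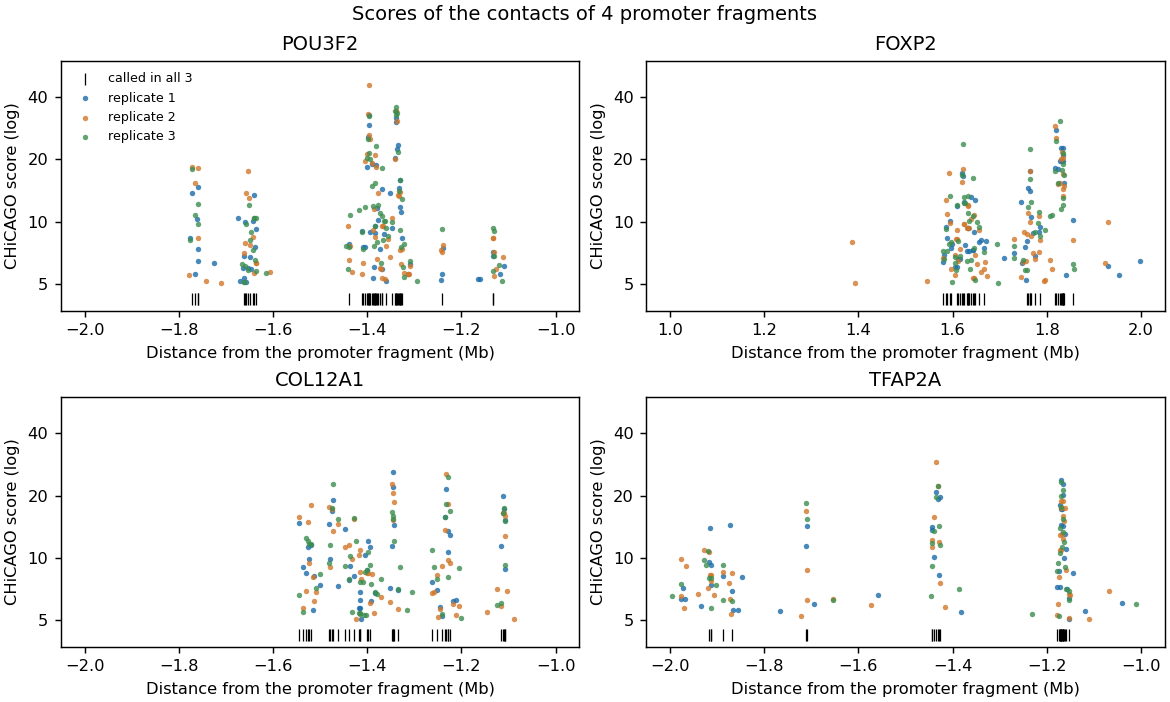
CHiCAGO score (y axis, log scale) of each interaction of the promoter fragments of POU3F2, FOXP2, COL12A1 and TFAP2A against its distance from the promoter in Mb (x axis, negative to the left), coloured by replicate; ticks at the base mark interactions called in all 3 replicates. The scores stood in narrow groups of neighbouring fragments that the 3 replicates had in common, such as 31 fragments for POU3F2.

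The other 6 protein-coding promoters among the 15 belonged to genes of secreted or cell-surface proteins. TAFA4, a secreted chemokine-like protein, had 74, 69 and 67 interactions and 47 in all 3, which reached past SUCLG2 to KBTBD8 at 1514 to 2000 kb. COL12A1, the chain of fibril-associated collagen XII, had 51, 58 and 59, with 38 in all 3 in 5 blocks on and around CD109. CDH7, a type II cadherin, had 44, 36 and 37 interactions. Its 33 in all 3 stood in 2 blocks on and beside SERPINB8 without a gene between, and 24 of them lay in a desert. RSPO3, which amplifies WNT signalling, had 49, 42 and 43, and 27 of its 32 in all 3 formed 1 block of 99.6 kb over TRMT11 and HINT3. HTR1B, a serotonin receptor, had 40, 35 and 38. It was the exception among these in reaching both ways, with 26 interactions in all 3 to a block of 77.96 kb at IMPG1 and MYO6 on the left and 3 on the right. RGMB, a co-receptor for bone morphogenetic proteins, had 56, 46 and 52 interactions and 29 in all 3, of which 24 lay in the desert between RIOK2 and RGMB.

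The other 4 promoter fragments of the 15 were named for noncoding genes. The fragment with RNU6-872P on chromosome 21 had 48, 47 and 55 interactions and 39 in all 3, of which 28 formed a block over and around ADAMTS1, a secreted metalloproteinase. The fragment with SNORD112 on chromosome 1 had 49, 42 and 42 and 33 in all 3, of which 32 lay in the desert right of NUF2. Those with snoU13 on chromosome 8 and with AC092965.1 on chromosome 3 had 30 each in all 3, all of them in deserts. Their counts in replicates 1, 2 and 3 were 56, 51 and 50 for snoU13 and 54, 56 and 55 for AC092965.1. By type, 717 of 14036 promoter fragments with a protein-coding start (5.11%) had an interaction in all 3 replicates, as did 146 of 2518 with a lncRNA or miRNA start only (5.80%), 108 of 1861 with another gene's start only (5.80%) and 54 of 660 with no annotated start (8.18%).

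**Figure D4:**
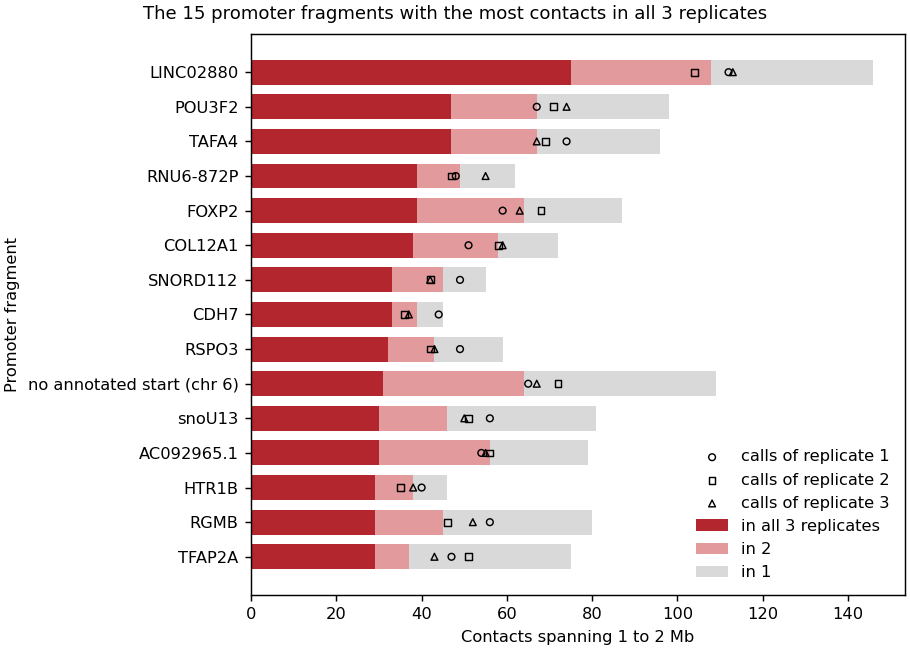
Number of interactions spanning 1 to 2 Mb (x axis) of the 15 promoter fragments with the most in all 3 replicates (y axis); bars split them by the number of replicates calling, and open symbols give the calls of each replicate. LINC02880 stood apart with 75 in all 3 replicates, ahead of POU3F2 and TAFA4 with 47 each.

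The strongest single interactions came in part from these promoters and in part from others. That of OR4C5, an olfactory receptor gene, reached chr11:50038981-50039232 at 1651 kb with scores of 223.65, 209.25 and 33.07. The RNU6-872P fragment met chr21:28219153-28219896 beside ADAMTS1 with 113.23, 33.42 and 146.61. Within both, the scores differed several times between replicates. EFNB2, the ephrin ligand of arterial endothelium and of axon guidance, met chr13:105220397-105223780 at 1966 kb with 48.23, 50.75 and 32.23. PDGFRA, the receptor for platelet-derived growth factors on mesenchymal cells, met the PIR printed above, inside SCFD2 at 1217 kb, with 57.63, 32.70 and 34.49, and 6 protein-coding genes lay between. HTR1B met chr6:76642188-76642862 in IMPG1 with 33.91, 36.70 and 54.54. The SNORD112 fragment met chr1:163379254-163380187, nearest to RGS5, a regulator of G protein signalling known from pericytes, with 51.61, 40.85 and 32.14. POU3F2 met chr6:97888140-97888777 with 32.78, 46.07 and 32.38.

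Of the remaining 3 among the 10 strongest, the AL121588.1 fragment met a PIR nearest to TOP1 with scores of 34.84, 37.88 and 41.25. BASP1 scored 33.19, 55.67 and 39.66 and MATN1 scored 42.55, 36.99 and 31.71, and both of their spans hold a run of undetermined bases in GRCh37, so that their distance is less certain. Many scores of this span lay close to those values: there were 172 from 27 to below 31, 182 from 31 to below 35 and 30 from 35 to below 39, so that the number did not fall between 27 and 35. Fragments of an interaction shared little sequence. In 7.15% of all interactions the PIR and the promoter fragment had any 31-base word in common, and the highest share of a PIR's words was 9.36% in all and 3.06% among those in all 3 replicates. For the 10 strongest no word was shared.

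Gene deserts held more of these PIRs than of nearer ones. A desert was taken as at least 500 kb without a protein-coding gene body, and GRCh37 had 694 of them. In replicates 1, 2 and 3, 39.7%, 39.98% and 40.01% of the PIRs at 1 to 2 Mb lay in a desert, against 9.22%, 9.18% and 9.24% of those within 1 Mb and 30.96% of all HindIII fragments. The difference from nearer PIRs was 30.7 percentage points (SD 0.174, n = 3, higher in 3 of 3; exact two-sided sign-flip permutation test, p = 0.25). PIRs at 2 to 10 Mb had a similar share, with 39.85%, 39.02% and 38.99% in replicates 1, 2 and 3. The share at 1 to 2 Mb differed from theirs by 0.614 points (SD 0.655, n = 3, higher in 2 of 3). The exact two-sided sign-flip permutation test gave p = 0.5. A high desert share was thus not particular to 1 to 2 Mb. Fragments 1 to 2 Mb from a promoter also lie in deserts more often than nearer ones. Of the fragments 1 to 2 Mb from the promoters with a called start, 21.5% on average did, and this became 35.3% when promoters were weighted by their interactions of 1 replicate and 39.3% when weighted by those of all 3. The interactions themselves stood at 35.7% (95% Wilson interval 34.96 to 36.4%) in 1 replicate, 39.8% (38.5 to 41.1%) in 2 and 44.6% (43.3 to 46.0%) in all 3. With deserts free of genes of any annotated type, noncoding ones included, the excess over nearer PIRs was 0.952 points and the difference between all 3 and 1 replicate was -0.628 points.

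The desert with the most interactions in all 3 replicates, 77 from 14 promoter fragments, was chr10:8117162-10840359 between GATA3 and CELF2. Replicates 1, 2 and 3 called 151, 143 and 153 interactions there. GATA3, a zinc finger transcription factor of T cells and several developing organs, reached it with 19 interactions over 1100 to 1252 kb, of which 9 were in all 3 replicates with a highest mean score of 30.6. Promoters farther left took part as well, among them the fragment of ATP5F1C and KIN with 9, ITIH5 with 6 and TAF3 with 3. From the right side, CELF2, a splicing regulator of heart and brain, had 2 and its antisense gene CELF2-AS1 had 8. The most, 21, came from the noncoding gene ENSG00000230121 on the left, so that the desert was reached from both flanks.

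Next came chr6:112672497-114178523 between RFPL4B and MARCKS with 76 interactions, of which 49 were from LINC02880 and 9 from MARCKS. The desert chr18:73139659-74069636 between SMIM21 and ZNF516 had 62, and 20 of them were from ZNF407, a zinc finger protein, and 42 from 2 adjoining fragments without an annotated start. In the desert right of FGF9 on chromosome 13, 54 interactions came from 9 promoter fragments, with 21 from MICU2, a regulator of mitochondrial calcium uptake, and 17 from the growth factor gene FGF9. The 5 deserts with the most held 322 of the 2325 desert interactions in all 3 replicates, and 252 deserts had at least 1.

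PIRs of this span were poorer in G and C than nearer ones. Their median GC content was 38.8%, 38.6% and 38.7% in replicates 1, 2 and 3, beside 41.7% in each replicate for PIRs within 1 Mb, a difference of -3.00 percentage points (SD 0.0532, n = 3, lower in 3 of 3; exact two-sided sign-flip permutation test, p = 0.25). The median over all HindIII fragments was 39.04%. All fragments in reach of the promoters, called or not, differed in GC content as well. With promoters weighted by their interactions in all 3 replicates, it was 39.6% at 1 to 2 Mb and 42.5% within 1 Mb. The GC difference of the PIRs is thus not particular to the called fragments. PIRs at 2 to 10 Mb were poorer still, with 38.2%, 38.1% and 38.0% in replicates 1, 2 and 3. The PIRs seldom belonged to the gene whose promoter called them. In 27 of the 5208 interactions in all 3 replicates (0.518%) the PIR lay inside the promoter's own gene, one being the 1967 kb interaction of CNTNAP2, a neurexin-family gene, with chr7:147780779-147782019. Within 1 Mb the same share was 10.5%. The 2 shares are not alike, because a PIR over 1 Mb away can lie in the promoter's own gene only if that gene reaches about as far. The span itself therefore limits this share. The promoter's gene was the nearest protein-coding gene to the PIR in 82 interactions (1.57%). No protein-coding gene lay between in 1063 (20.4%) of those in all 3 replicates and in 2351 (13.6%) of those in 1. By place, 43.6% of the PIRs in all 3 replicates were in no annotated gene, 22.98% were in noncoding genes only and 32.9% were in another protein-coding gene.

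The CTCF core motif occurred 25.6, 25.4 and 29.6 times per Mb of PIR for interactions in 1, 2 and 3 replicates, beside 24.4 per Mb over all HindIII fragments and 47.0 per Mb for interactions within 1 Mb in all 3. The fragments in reach of the promoters differed between the spans too. With promoters weighted by their interactions in all 3 replicates, these fragments held 18.5 matches per Mb at 1 to 2 Mb and 28.6 within 1 Mb. Among the distinct PIRs in all 3 replicates, 255 of 3982 (6.40%, 95% Wilson interval 5.68 to 7.21%) held a match, and 4.51% of all HindIII fragments of the same lengths did. Counted once per interaction, 227 matches in the PIRs of all 3 replicates pointed towards the promoter and 136 away from it, so that 62.5% (57.4 to 67.4%) pointed inwards, against 56.5% (53.6 to 59.4%) in 1 replicate. Of the promoter sides with an interaction in all 3, 161 of 1037 (15.5%) had a match on the promoter fragment that pointed towards the PIR and 120 (11.6%) one that pointed away. Both ends held facing matches in 48 interactions of 41 promoter fragments, and both held matches pointing apart in 18. Matches at both ends pointed the same way in 27 interactions for 1 direction and in 38 for the other. The share of PIR matches pointing inwards was also 63.3% within 1 Mb and 51.6% at 2 to 10 Mb, for interactions in all 3 replicates. An inward excess was thus not particular to 1 to 2 Mb. Neighbouring PIRs are not independent, a match describes letters only, and binding of CTCF was not measured here.

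Some PIRs were shared by a whole gene cluster. The 175-base PIR chr6:27789606-27789780, printed above, was called in all 3 replicates from 15 promoter fragments of the large histone gene cluster of chromosome 6, at 1503 to 1770 kb. It lies in no annotated gene, nearest to H4C11 in another histone cluster of that chromosome. Histone genes of this kind supply the core and linker proteins of chromatin in S phase. The fragment of H3C4 and H2AC7 scored 19.28, 16.24 and 28.27 with it, that of H3C6 scored 13.35, 18.65 and 12.93 and that of H4C4 scored 10.61, 9.38 and 20.83. HFE, an iron-uptake regulator among them, was called in replicate 2 only (7.37). Some histone fragments were also called in 1 replicate, with H2AC8 (14.48) and that of H2AC6 and H2BC4 (5.91) in replicate 3 only. The neighbouring PIR chr6:27790515-27790965 was called from 12 promoter fragments of that cluster in all 3 replicates, and 2 more beside it, chr6:27786656-27789605 and chr6:27789802-27790514, from 8 each. The histone promoters and the first of these PIRs had no 31-base word in common.

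The fifth shared PIR, chr7:25912217-25913876 in the desert between NPVF and NFE2L3, was called in all 3 replicates from 9 promoter fragments of the HOXA cluster, whose homeodomain proteins set position along the body axis. All lay 1221 to 1313 kb away. HOXA3 scored 22.36, 17.70 and 22.20, HOXA4 scored 30.86, 11.60 and 21.79 and HOXA9 scored 26.74, 11.83 and 19.73. HOXA11 gave 13.81, 10.77 and 10.52. HOXA13, the last gene of the cluster, had 2 fragments that were called in 2 replicates each, with scores of 5.30 to 7.11. The promoter fragments of a cluster are neighbours, and they are not independent replicates of the contact.

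Interactions with another promoter fragment near their PIR were often called from both ends. Of the interactions in all 3 replicates, 1561 (29.97%) had another promoter fragment within 25 kb of their PIR, and the others could not be called back. Among the 1561, 1351 (86.5%) were called back from there to within 25 kb of the first promoter in at least 1 replicate. The share was 73.9% of 1668 for interactions in 2 replicates and 49.2% of 5120 for those in 1. LINC02880 with 37 such interactions, LAMA4 with 27, RGMB with 24 and SNORD112 with 21 led the promoters with a gene symbol.

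Chromosomes differed in how many interactions of this span they held. Chromosome 6 had 1932, 1917 and 1966 in replicates 1, 2 and 3, which was 11.5 to 11.7 per Mb of determined sequence. Chromosome 18 followed with 7.30 to 8.34 per Mb and chromosome 21 with 7.49 to 8.23, and the ranges of these 2 overlapped. At the other end stood chromosome 15 with 1.98 to 2.34 per Mb, chromosome 19 with 1.99 to 2.22 and chromosome 22 with 1.83 to 2.03, whose ranges overlapped one another. Of 22 neighbouring pairs in the order, 15 had overlapping ranges. In all 3 replicates chromosome 6 had 846 interactions and chromosome 18 had 276, against 24 on chromosome 19 and 25 on chromosome 22. The share called in all 3 replicates was 27.7% on chromosome 18 and 24.9% on chromosome 6, and it was 8.16% on chromosome X and 9.06% on chromosome 19. Per called promoter fragment chromosome 18 came first, with 2.06 ± 0.140 interactions in a replicate (SD, n = 3), ahead of chromosome 6 with 1.85 ± 0.0239.

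Across protein-coding genes with a called promoter fragment, 791 of 15515 (5.1%) had an interaction of this span in all 3 replicates and 3368 (21.7%) had one in at least 1. Against these shares, genes of cell adhesion and axon guidance stood at 29 of 74 (39.2%) and 49 of 74 (66.2%). Developmental transcription factors stood at 30 of 90 (33.3%) and 42 of 90 (46.7%). Cardiac transcription factors stood at 5 of 24 (20.8%) and 7 of 24 (29.2%). No sarcomere gene of 29, no gene of mitochondrial complex I of 29, no pluripotency gene of 7 and no endothelial gene of 9 had one in all 3 replicates. In at least 1 replicate 3 (10.3%), 5 (17.2%), 3 (42.9%) and 2 (22.2%) of them had one. At a share of 5.1%, lists this short would hold few such genes or none, so their absence in all 3 replicates tells little. The lists were compared by counts only.

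**Figure D5:**
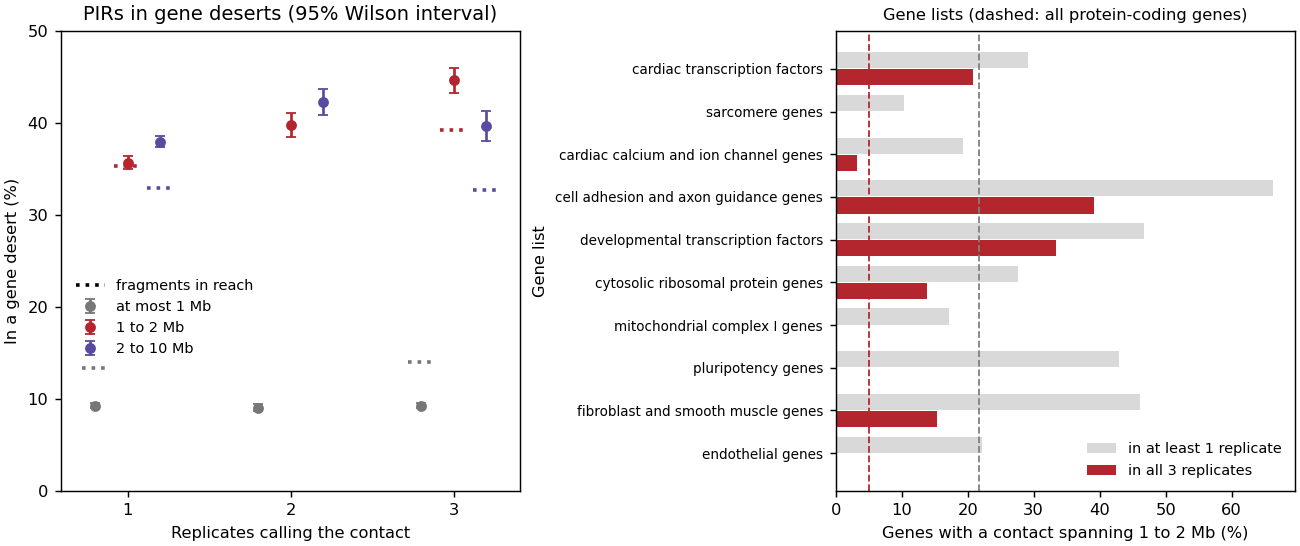
Left, percentage of PIRs in a gene desert (y axis) by the number of replicates calling (x axis) for 3 spans, with 95% Wilson intervals; dotted bars give the share among all fragments in reach of the same promoters, weighted by their interactions. Right, for each gene list (y axis), the percentage of its genes with an interaction spanning 1 to 2 Mb (x axis), with dashed lines at the 21.7% and 5.1% of all protein-coding genes; adhesion genes (39.2%) and developmental transcription factors (33.3%) stood highest in all 3 replicates.

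Among adhesion and guidance genes, CDH7 came first, followed by the protocadherin PCDH10 with 34, 32 and 39 interactions and 24 in all 3. LRRC4C, a synaptic adhesion protein, had 32, 28 and 30 and its strongest scored 37.39, 32.13 and 33.52. SLIT2, a repulsive guidance ligand of ROBO receptors, had 26, 29 and 34, and all 21 of its interactions in all 3 lay in a desert to the left. The contactins CNTN5 and CNTN6 had 17 and 16 in all 3, PCDH17 had 15, PCDH9 had 13, and EFNB2 and CNTNAP2 had 12 each. The receptors DCC and ROBO1 had 1 each, with scores of 5.17 to 7.42, close to the threshold.

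Among the developmental transcription factors, MEIS1, a cofactor of HOX proteins that also acts in heart development, had 38, 38 and 34 interactions and 19 in all 3, all in a desert to the right. SOX4 and NR2F2 had 15 each in all 3. NR2F2, an orphan nuclear receptor of atrial and venous identity, scored 23.79, 19.09 and 16.74 in its strongest interaction at 1662 kb. DLX6 and DLX5 had 13 and 11 interactions in all 3 and met neighbouring fragments within another protein-coding gene, nearest to DYNC1I1. SOX9, whose distant regulatory region is a textbook example of long reach, had 2 in all 3, and the stronger scored 14.56, 6.56 and 8.16.

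Within the cardiac list, TBX3, a T-box repressor of the conduction system, had 13 interactions in each of the 3 replicates and 11 in all 3. All 11 lay to the right of the gene in a desert, and the strongest met chr12:116192179-116193808 at 1072 kb with 17.96, 17.56 and 15.10. MEF2C, a MADS-box activator of muscle genes, had 11, 9 and 16 interactions and 5 in all 3, with 11.47, 12.66 and 13.21 at 1301 kb. ISL1, a marker of second heart field progenitors, had 5, 5 and 11 and 3 in all 3. HAND1, a basic helix-loop-helix factor of the heart and extraembryonic tissues, had 1 in all 3, with a mean score of 8.14. Of 31 ion channel and calcium genes, 6 (19.4%) had an interaction in at least 1 replicate and 1 (3.23%) in all 3. Neither share exceeded the 21.7% and 5.1% of all protein-coding genes. The gene in all 3 was KCND2, the channel subunit behind the transient outward potassium current, with 2 in all 3. They lay just past the 1 Mb limit, at 1003.5 and 1005.6 kb, and the stronger, at 1005.6 kb, had scores of 13.30, 18.66 and 14.52. In the list of fibroblast and smooth muscle genes, PDGFRA had 26, 28 and 26 interactions and 19 in all 3, and DCN had 1. Of the 13 genes of that list, 6 (46.2%) had one in at least 1 replicate and these 2 (15.4%) in all 3.

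Cytosolic ribosomal protein genes stood at 9 of 65 (13.8%) in all 3 replicates and 18 of 65 (27.7%) in at least 1. Each of the 9 had exactly 1 interaction in all 3, with mean scores of 6.07 for RPL37A to 8.94 for RPS7. With scores of at least 7 required, 2 of the 9 were left, and with scores of at least 10 none was. Under the latter, 16 adhesion and guidance genes, 16 developmental transcription factors and 2 cardiac transcription factors were left.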

How the data were processed

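The deposited data were promoter interactions of each of 3 biological replicates and of the replicates merged. The authors cut chromatin with HindIII, mapped the reads to GRCh37 with HiCUP and used CHiCAGO with its default settings, and they deposited the CHiCAGO score of each pair of fragments, from 5 upwards with 2 decimals. Versions of these tools were not given in the sources used here. Reads were not reprocessed, so the depth of each replicate is unknown, and a list that starts at 5 hides weaker pairs.

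An interaction was the same in 2 replicates if both fragments had identical coordinates. Distance was measured from midpoint to midpoint, a mean score is taken over the replicates that called, and gene bodies and starts came from GENCODE v44 on GRCh37 coordinates. A promoter fragment was named for the protein-coding starts in it, or for other genes where it had none. The genes named were those of the 15 promoter fragments with the most interactions in all 3 replicates, the 10 highest mean scores (1 per promoter fragment), the 5 deserts and 5 PIRs with the most, the 3 chromosomes at each end of the order, and the genes of the lists with the most. Some of the genes and 1 of the deserts that this rule takes are not reported here. The 4 pairs of sequences and the calls from HFE, H2AC8, H2AC6 with H2BC4, and HOXA13 were chosen after their values were seen. Members and lists were chosen with earlier results of these data known. Alternatives were score thresholds of 7 and 10, leaving out each replicate, the merged calls, keeping interactions between promoter fragments, distance between fragment ends, leaving out spans with undetermined bases, matching within 5 kb, other deserts, and leaving out chromosome 6. Differences between spans were tested by exact sign-flip permutation over the 3 replicates. Wilson intervals have 95% confidence and cover counting error only. Python 3.11.15 with numpy 2.4.6, pandas 2.3.3 and scipy 1.17.1 was used, and the scripts were tested on simulated interactions.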

Additional observations from a re-analysis of the deposited data

Results flagged for a closer look

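The calls on the merged replicates, used above only as an alternative for the distance step, held 15020 interactions of this span. Of these, 1061 were called in no single replicate, with a median score of 5.44, beside 7.56 for the other 13959. The merged calls held 99.8% of the interactions in all 3 replicates, 87.8% of those in 2 and 23.5% of those in 1. They are a signal outside the calls of the replicates, and its cause was not tested.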

How the results depend on the processing

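The number of interactions was 12262 at scores of at least 7, 4851 at scores of at least 10 and 15020 in the merged calls. The share in all replicates was 22.6% and 27.2% at those thresholds, 47.4% with matches within 5 kb, 17.8% without chromosome 6, and 31.4 to 32.1% when 1 replicate was left out, where 2 replicates had to call. The difference in desert share between interactions of all 3 replicates and of 1 was 7.26 points at scores of at least 7, 4.66 points with deserts of at least 1 Mb, 10.6 points without chromosome 6 and 6.28 to 7.46 points with 1 replicate left out. It turned to -0.628 points with deserts free of genes of every type, and the cause was not tested. Both recurrence differences, and the desert share and GC difference against nearer PIRs, kept their direction under every alternative run. Across the results with a comparison or a count, 55 values under alternatives kept their direction and side of the threshold or, without a test, stayed close to the reported value, 15 moved and 1 reversed. The desert excess over nearer PIRs is among the 55 although it fell from 30.7 to 0.952 points with deserts free of genes of every type. Among the gene lists, own-gene shares and motif densities 45 stayed close and 15 moved. Leaving out chromosome 6 was chosen after seeing the data. No paired analysis was possible because the labels give 1 group, so that no samples of different groups could be paired, and spans were compared within each replicate. Weak interactions are limited by the score threshold, and 3 replicates cannot give a two-sided p below 0.25.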
